A study of Mus musculus with 12 samples.

Results

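Messenger RNA of 47 cell cycle genes, among 55421 rows of a count table, was followed in mouse liver. The genes were taken by symbol and comprise 11 cyclins, cyclin-dependent kinases and kinase inhibitors that act in G1 (the cyclin and inhibitor genes), 9 E2F and FoxM1 transcription factors and DNA synthesis enzymes (the S phase genes), and 27 mitotic genes. The livers came from male C57BL/6 mice of the strains Fra1hep and Fra2hep, which the labels describe as mostly hepatocyte material. There were 4 groups of 3 mice each, Fra1 mutants, Fra1 controls, Fra2 mutants and Fra2 controls. Fra1 mutants carry an inducible transgene for Fra-1 (gene Fosl1) and Fra2 mutants one for Fra-2 (gene Fosl2), both subunits of the transcription factor AP-1. Doxycycline, which silences the transgene, was withdrawn at 3 weeks of age from mutants and littermate controls alike. Per the series' design, the controls shared the cage and the withdrawal. Titles and design place the sampling of all 12 mice 2 months later, whereas the treatment label of the Fra2 mutants reads 9 months, so that an effect of age on the Fra2 comparison cannot be told apart. The promoter that drives the transgene is not given in the labels.

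The cell cycle is driven by kinases whose cyclin partners are made and destroyed in order. Cyclins D with Cdk4 and Cdk6, and then cyclins E with Cdk2, phosphorylate the retinoblastoma family in G1 and release E2F factors, which switch on enzymes of DNA synthesis. Later in the cycle the DREAM and MuvB complexes with FoxM1 control the mitotic genes, through promoter elements named the cell cycle homology region and, with the factor NF-Y, the CCAAT box. Adult hepatocytes rest in G0, are often polyploid, and can re-enter the cycle after injury or partial hepatectomy.

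Totals ran from 16834041 to 20464807 counts per library. Fosl1 stood at 9.40, 10.2 and 12.8 CPM (counts scaled to a common library size) in Fra1 mutants, against 0, 0 and 0.0538 CPM in Fra1 controls, and Fosl2 stood at 398, 421 and 420 CPM in Fra2 mutants, against 12.2, 48.0 and 16 CPM in Fra2 controls. Both targeted genes thus matched the labels. In most mitotic genes, Fra1 mutant 2 and Fra2 control 1 were the highest of their groups and Fra1 mutant 3 the lowest of its group. For some of the results that rest on these livers, values without them are also given. The filter on low counts kept 14076 genes and 45 of the 47 cell cycle genes. It left out Ccnb1, the gene of cyclin B1, at a mean of 0.240 CPM, and Bub1, a spindle checkpoint kinase, at 0.259 CPM. In whole liver, fewer cells of a type and less RNA per cell cannot be told apart. The summed level of the hepatocyte markers Alb, Ttr, Apoa1, Serpina1a, Tat and Asgr1 lay between 46242 and 98833 CPM in Fra1 mutants, between 78088 and 114729 CPM in Fra1 controls, between 49515 and 63533 CPM in Fra2 mutants and between 97570 and 119144 CPM in Fra2 controls.

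The promoters of the genes are described first. RefSeq windows on GRCm38.p6 were matched for 39 of the 47 genes, 45 windows in all, some genes having more than 1 start. Some windows, such as window 2 of E2f2 and that of Cdk6, lie inside the annotated span of the gene. Ccna2, Tpx2, Aurkb, Kif20a, Foxm1, Ccnd2, Ccne2 and Ccnd1 had no matched window. In the 250 bases before each start, both strands were searched for 4 motifs. They were the CCAAT box, spelled CCAAT, the cell cycle homology region, spelled TTTGAA or TTCGAA, the E2F core, spelled TTCGCGC or TTGGCGC and also TTCCCGC or TTGCCGC, and the AP-1 site, spelled TGACTCA or TGAGTCA. Matches of different motifs overlapped in 3 windows, and the windows of the 2 starts of Ect2, and of Prc1, overlap each other. A match is a run of letters and was not tested for binding. The sequences below, 250 bases each, are shown for E2f2, the 1 gene of the 47 that passed edgeR's test in the average of both strains, for 3 mitotic genes with both mitotic elements, and for 2 G1 genes with none. They run from 5′ to 3′ up to the start, and capitals mark the matches.
E2f2, window 1 (chr4:136172024-136172273, plus strand): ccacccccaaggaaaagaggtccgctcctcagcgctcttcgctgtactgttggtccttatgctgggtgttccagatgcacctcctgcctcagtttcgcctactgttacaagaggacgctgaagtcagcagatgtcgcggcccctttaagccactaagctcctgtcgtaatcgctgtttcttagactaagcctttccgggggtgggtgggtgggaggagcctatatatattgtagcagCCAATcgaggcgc
E2f2, window 2 (chr4:136180532-136180781, plus strand): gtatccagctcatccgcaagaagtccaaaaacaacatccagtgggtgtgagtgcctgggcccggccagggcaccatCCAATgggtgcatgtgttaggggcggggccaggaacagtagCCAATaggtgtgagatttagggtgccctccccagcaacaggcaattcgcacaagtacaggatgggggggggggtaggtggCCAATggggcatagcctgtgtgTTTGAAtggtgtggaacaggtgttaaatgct
Cdk1 (chr10:69352913-69353162, minus strand): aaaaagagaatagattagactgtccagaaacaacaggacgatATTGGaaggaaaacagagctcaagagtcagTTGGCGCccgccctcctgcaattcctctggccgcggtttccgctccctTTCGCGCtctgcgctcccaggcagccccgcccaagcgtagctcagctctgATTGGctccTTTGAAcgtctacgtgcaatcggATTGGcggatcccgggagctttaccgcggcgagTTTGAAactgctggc
Ube2c (chr2:164769679-164769928, plus strand): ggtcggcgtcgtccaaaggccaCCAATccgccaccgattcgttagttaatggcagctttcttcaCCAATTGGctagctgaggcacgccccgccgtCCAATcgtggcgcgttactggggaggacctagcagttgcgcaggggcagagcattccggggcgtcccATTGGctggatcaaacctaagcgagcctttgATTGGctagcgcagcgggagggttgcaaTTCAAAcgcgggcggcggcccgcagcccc
Kif11 (chr19:37376132-37376381, plus strand): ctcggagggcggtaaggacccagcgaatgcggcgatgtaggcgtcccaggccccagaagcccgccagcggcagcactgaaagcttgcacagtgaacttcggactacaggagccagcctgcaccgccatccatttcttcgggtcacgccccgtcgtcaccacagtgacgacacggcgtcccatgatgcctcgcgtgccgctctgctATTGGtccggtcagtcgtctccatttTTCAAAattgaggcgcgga
Cdk6 (chr5:3343643-3343892, plus strand): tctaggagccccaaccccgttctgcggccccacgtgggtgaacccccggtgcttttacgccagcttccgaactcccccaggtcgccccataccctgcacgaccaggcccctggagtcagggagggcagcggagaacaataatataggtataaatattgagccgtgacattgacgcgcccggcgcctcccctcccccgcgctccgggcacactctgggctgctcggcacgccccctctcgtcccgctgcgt
Cdkn1a, window 1 (chr17:29090729-29090978, plus strand): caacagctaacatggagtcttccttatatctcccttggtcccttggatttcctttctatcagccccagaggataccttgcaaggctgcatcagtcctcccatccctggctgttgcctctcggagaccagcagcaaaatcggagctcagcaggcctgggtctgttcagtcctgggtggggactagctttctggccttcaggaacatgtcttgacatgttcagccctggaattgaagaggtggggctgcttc

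The CCAAT box was found in 22 of 25 windows of mitotic genes (88.0%), in 6 of 9 windows of S phase genes (66.7%) and in 3 of 11 windows of cyclin and inhibitor genes (27.3%), beside 33.9% of all 32851 RefSeq windows. The cell cycle homology region was found in 11 of 25 mitotic windows (44%), 2 of 9 S phase windows and 0 of 11 cyclin and inhibitor windows, beside 17.1% of all windows. All 11 mitotic windows with that element also had a CCAAT box, a combination in 6.02% of all windows. In the Cdk1 window the cell cycle homology region lies 71 and 15 bases before the start and CCAAT boxes lie at 208, 80 and 48 bases, with E2F cores at 178 and 130 bases. Ube2c, whose product is a ubiquitin-conjugating enzyme of the anaphase-promoting complex, had 6 CCAAT matches in 5 separate stretches, since 1 stretch matches on both strands. E2F cores were in 4 of 25 mitotic, 3 of 9 S phase and 2 of 11 cyclin and inhibitor windows, beside 7.89% of all windows. The AP-1 letters were in 0 of the 45 windows, beside 4.46% of all windows, which says only that these letters are not in these 250 bases.

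**Figure D1:**
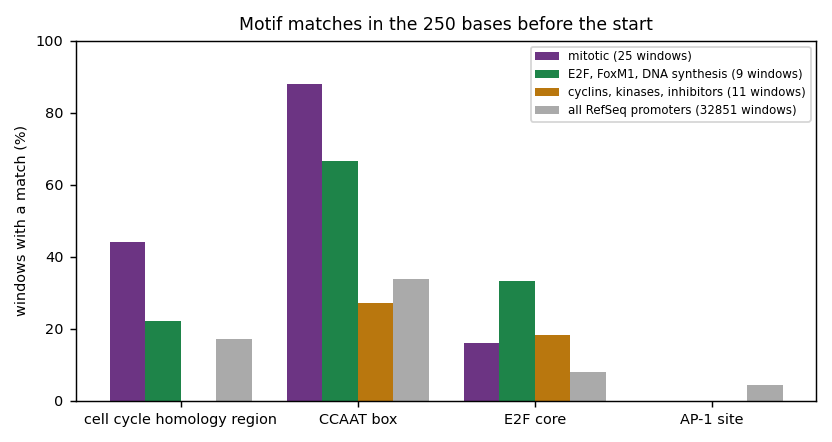
Bars give the percentage of promoter windows with at least 1 match of each motif (horizontal axis), for windows of mitotic, S phase, and cyclin and inhibitor genes and for all RefSeq windows. The CCAAT box is in 88.0% of mitotic windows and 27.3% of cyclin and inhibitor windows, and the AP-1 bars of the 3 gene groups are at 0.

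The groups of genes differed in level before any comparison of mice. Per kilobase of exon, and as the mean over all 12 livers, the median level was 2.95 CPM per kb for the cyclin and inhibitor genes, 1.08 CPM per kb for the S phase genes and 0.230 CPM per kb for the mitotic genes. Cdk4, a catalytic partner of cyclins D, was the highest of the 47 at 12 CPM per kb, followed by Ccnd1 (cyclin D1) at 7.28 and the inhibitor gene Cdkn1b (p27) at 7.20. The lowest were Cenpe, a kinetochore motor, at 0.0563 and Ccnb1 at 0.0568 CPM per kb. Of the 47 genes, 18 overlap an exon of another gene on the opposite strand, and the sources used here do not say if reads were counted by strand. For Cdk4 that neighbour is Tspan31, which averaged 285 CPM.

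Spread between mice of 1 group was also uneven. The pooled SD of log2(CPM + 0.5) within groups had a median of 0.31 among cyclin and inhibitor genes, 0.43 among S phase genes and 0.46 among mitotic genes, against 0.24 over all genes tested. Rrm1, the large subunit of ribonucleotide reductase, and Cdk4 were the steadiest, each at 0.09. Cdkn1a (the inhibitor p21), at 1.25, and Ccnd1, at 0.99, varied most. These are not the genes with the fewest counts, since they average 17.4 CPM and 34.3 CPM.

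**Figure D2:**
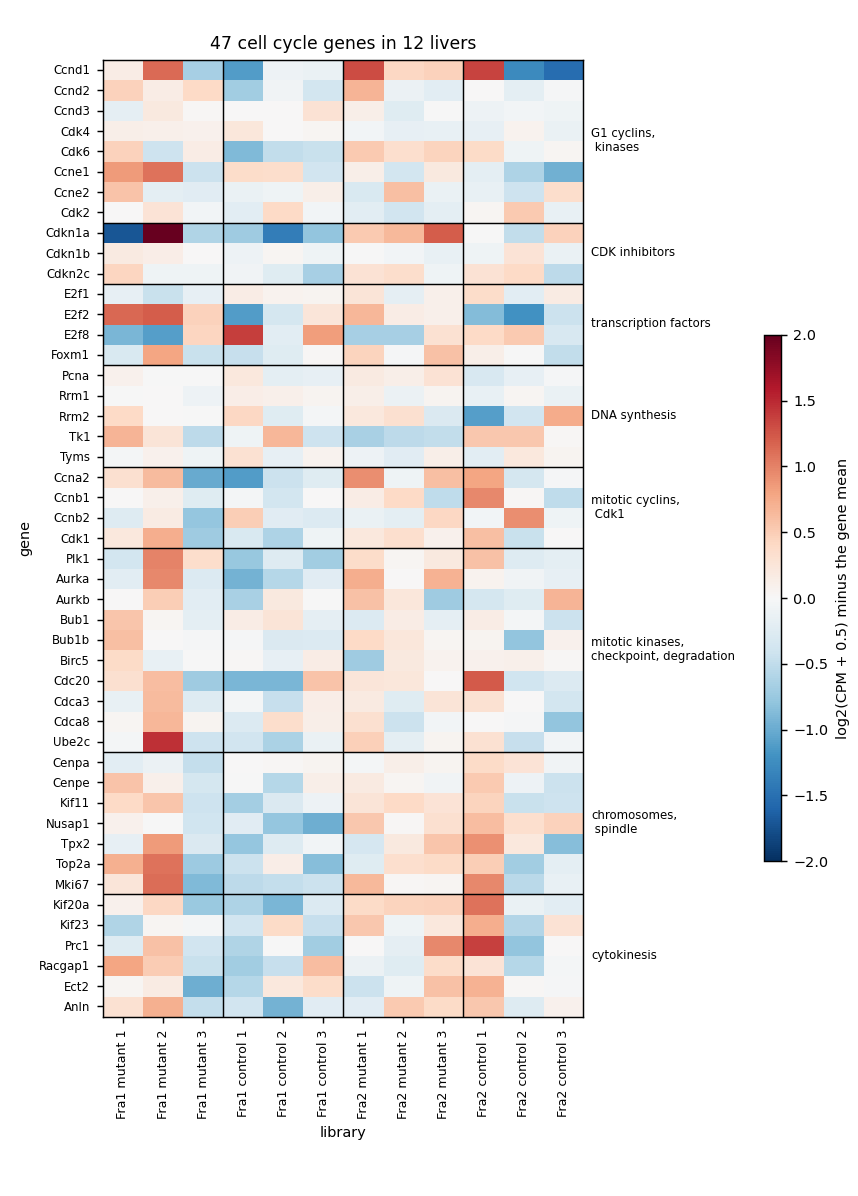
Each cell gives log2(CPM + 0.5) of 1 gene in 1 library minus that gene's mean over the 12 libraries, with colours limited to the range from -2 to 2. Genes run down the page by role and libraries across by group. E2f2 is above its mean in all 6 mutant libraries, and most mitotic genes are above theirs in Fra1 mutant 2 and Fra2 control 1.

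Mutants were set against controls of the same strain, which asks which transcripts follow the induced AP-1 subunit. In Fra1 mutants, 0 of the 45 genes tested rose and 0 fell at an adjusted p under 0.05 by edgeR's quasi-likelihood test, where 2.9% of all genes tested rose and 0.938% fell. DESeq2 called 2 of them, Cdk6 and E2f2, both higher, where it called 4.82% of all genes higher and 2.44% lower. At an unadjusted p under 0.05 there were 10 of 45 (22.2%), beside 16.3% of all genes. That count of 10 became 3 without Fra1 mutant 2, 17 without Fra1 mutant 3 and 4 with the 6 Fra1 libraries alone. Shares of all genes in those fits are not given here. In Fra2 mutants, 0 rose and 0 fell, where 0.845% of all genes rose and 0.22% fell. There DESeq2 called 0, where it called 3.18% of all genes, and 3 of 45 (6.67%) had an unadjusted p under 0.05, beside 11.5% of all genes. With the effects of both strains averaged, 1 of 45 rose, E2f2, where 4.33% of all genes rose and 1.9% fell, and 0 fell. DESeq2 called Cdk6 and E2f2 higher in that average, where it called 5.95% of all genes higher and 3.63% lower, and 7 of 45 (15.6%) had an unadjusted p under 0.05, beside 19.4% of all genes.

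Few of the genes had mutants and controls that did not overlap. The 3 mutants lay above the 3 controls in 3 genes of Fra1 livers (Ccnd2, Cdk6 and E2f2; 11.7% of all genes) and below them in 3 (E2f1, Rrm1 and Cenpa; 10.0% of all genes). In Fra2 livers they lay above in 3 (Cdkn1a, E2f2 and Pcna; 9.29% of all genes) and below in 2 (Cdk2 and Tk1; 8.18% of all genes). Mutants above controls in both strains held for E2f2, beside 3.49% of all genes, and mutants below controls in both strains for 0 of the 45, beside 2.05%. In each strain, 6.67% of the 45 lay above, a smaller share than among all genes.

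**Figure D3:**
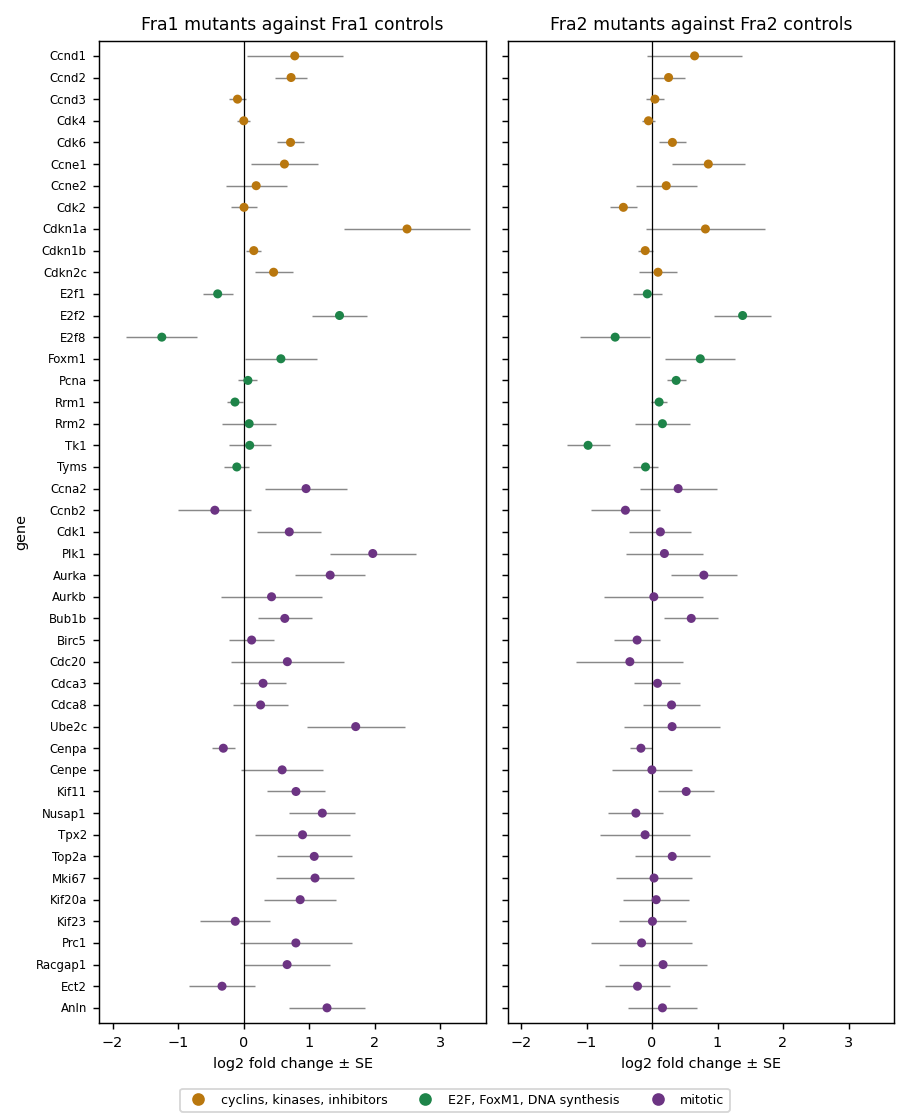
Points give the log2 fold change of mutants against controls with its SE (horizontal axis) for the 45 genes tested, by role, in the Fra1 strain (left) and the Fra2 strain (right). Mitotic genes have a median of 0.70 in Fra1 and 0.06 in Fra2, with SEs around 0.56 and 0.53.

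Among the transcription factors, E2f2 (ENSMUSG00000018983, chromosome 4, 136172394 to 136196057, plus strand, GRCm38), an activating E2F that drives entry into S phase, rose in mutants with both strains averaged. It stood at 6.61, 6.95 and 3.91 CPM in Fra1 mutants, against 0.979, 2.01 and 3.28 CPM in Fra1 controls. In the other strain it stood at 4.61, 3.05 and 2.96 CPM in Fra2 mutants, against 1.27, 0.893 and 1.89 CPM in Fra2 controls. Each mutant lay above each control of its strain, with the narrowest gap between Fra1 mutant 3 and Fra1 control 3. The values rest on 330 counts over the Fra1 mutants and 117 over their controls, and on 192 over the Fra2 mutants and 74 over theirs. The log2 fold change was 1.46 ± 0.42 (SE) in Fra1 (edgeR, adjusted p = 0.0833) and 1.38 ± 0.43 in Fra2 (adjusted p = 0.204). The average of both, 1.42 ± 0.30, passed edgeR's test (adjusted p = 0.0158), and the effects differed by -0.08 ± 0.61 (Fra2 minus Fra1). With the replicate number as a block the average was 1.48 (adjusted p = 0.0577), and with Fra1 mutant 2 and Fra2 control 1 both left out it was 1.33 (adjusted p = 0.0555), so that the call was lost in those 2 fits. It held with each of the 12 libraries left out in turn (adjusted p from 0.00824 to 0.0447). The 2 promoter windows of E2f2 printed above hold 1 and 3 CCAAT boxes, and the second also holds 1 cell cycle homology region. That second window lies inside the gene span given above, and not before its annotated start.

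The other transcription factors gave no call. E2f8, an atypical E2F that represses E2F targets and is known for its part in hepatocyte polyploidy, stood at 2.57, 2.21 and 7.36 CPM in Fra1 mutants, against 14.7, 4.52 and 9.84 CPM in Fra1 controls. Its Fra2 values were 3.15, 3.16 and 6.64 CPM in mutants, against 7.17, 7.87 and 4.15 CPM in controls. The groups overlapped in both strains, through mutant 3 each time. The average log2 fold change was -0.91 ± 0.38 (edgeR, adjusted p = 0.216). Gm2788, whose exon overlaps E2f8 on the other strand, stood at 9.73, 0.947 and 23.5 CPM in Fra1 mutants, against 74.1, 35.9 and 37.8 CPM in Fra1 controls, and at 14.2, 12.9 and 30.04 CPM in Fra2 mutants, against 48.7, 39.3 and 18.1 CPM in Fra2 controls. Within each Fra1 group both genes had the same order of libraries, and within each Fra2 group they differed in the order of replicates 1 and 2. Whether reads of Gm2788 entered the E2f8 count was not tested. Summed erythroid markers (7 genes, 5 of them with counts in every library and Rhag at 0 in all) lay between 60.1 and 151 CPM in Fra1 mutants and between 219 and 324 CPM in Fra1 controls. They lay between 106 and 162 CPM in Fra2 mutants and between 139 and 280 CPM in Fra2 controls. The sum was led by Alas2, at a mean of 135 CPM, with Hba-a1 next at 19.7 CPM. As the mean log2(CPM + 0.5) of the 7 genes, the Fra1 groups overlapped, at 2.32 in Fra1 mutant 3 against 2.30 and 2.31 in Fra1 controls 2 and 3. The part of erythroid cells in the E2f8 values was not tested. E2f1, another activator, stood at 2.95, 2.32 and 2.94 CPM in Fra1 mutants, all below the 3.78, 3.53 and 3.50 CPM in Fra1 controls, yet missed edgeR's threshold (log2 fold change -0.40 ± 0.23, adjusted p = 0.428). Foxm1, the forkhead factor of the mitotic programme, had log2 fold changes of 0.57 ± 0.55 in Fra1 and 0.74 ± 0.54 in Fra2 at a mean of 0.781 CPM.

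**Figure D4:**
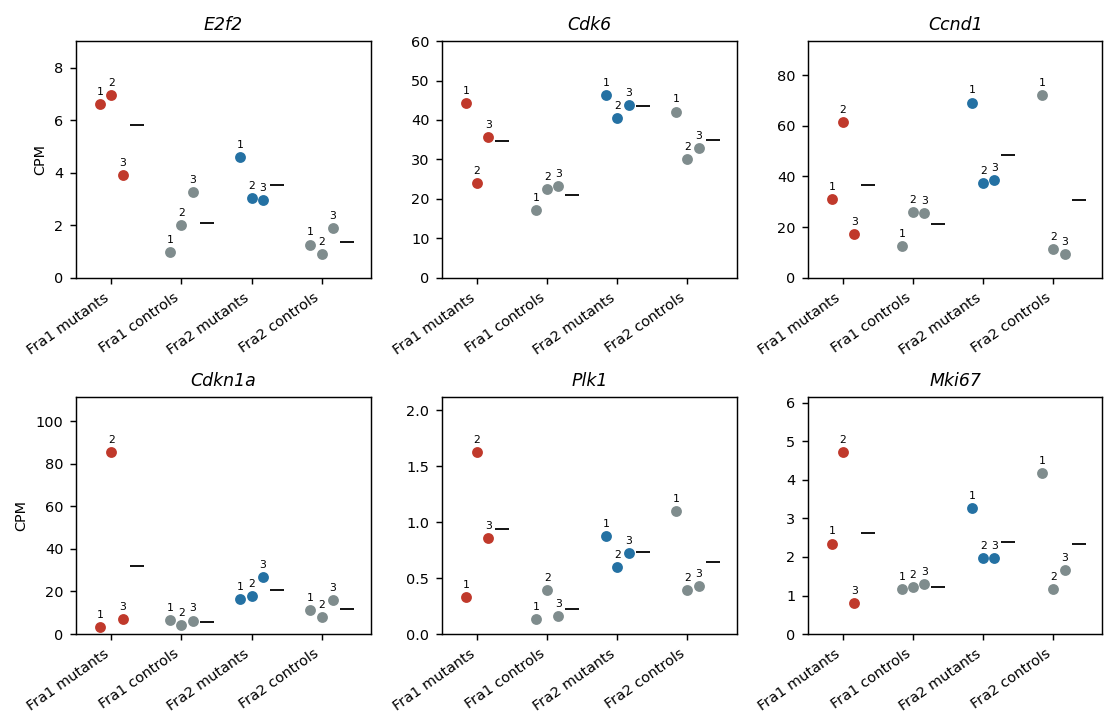
Points give the CPM of 6 genes in each library, numbered by replicate, and the dash beside each group is its mean over 3 mice. E2f2 is higher in every mutant than in every control of its strain, Cdkn1a is set apart by Fra1 mutant 2 at 85.7 CPM, and Ccnd1 is high in Fra2 control 1 at 71.9 CPM.

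The G1 kinase Cdk6 (ENSMUSG00000040274, chromosome 5, 3341485 to 3531008, plus strand), which with cyclins D opens the retinoblastoma switch, came next. It stood at 44.4, 23.9 and 35.6 CPM in Fra1 mutants, against 17.2, 22.5 and 23.4 CPM in Fra1 controls. In Fra2 livers it stood at 46.2, 40.4 and 43.7 CPM in mutants, against 42.1, 30.1 and 32.8 CPM in controls. The Fra1 groups did not overlap, although Fra1 mutant 2 lay only just above Fra1 control 3, and the Fra2 groups overlapped through Fra2 control 1. The log2 fold change was 0.72 ± 0.21 in Fra1 (edgeR, adjusted p = 0.0926), 0.31 ± 0.21 in Fra2 (adjusted p = 0.645) and 0.51 ± 0.15 in the average (adjusted p = 0.0677). Leaving out Fra1 mutant 2 brought the Fra1 value to 0.92, which passed edgeR's test (adjusted p = 0.0177), and the average to 0.62 (adjusted p = 0.0120), and leaving out Fra2 control 1 brought the average past it as well (adjusted p = 0.0435). Other libraries left out lowered the values, to 0.48 in Fra1 without Fra1 mutant 1 (edgeR, adjusted p = 0.302), to 0.58 without Fra1 control 1 (adjusted p = 0.319) and to 0.39 in the average without Fra1 mutant 1 (adjusted p = 0.144). Cdk4, which also pairs with cyclins D, differed less than its spread, at 41.9, 41.7 and 41.1 CPM in Fra1 mutants, against 45.4, 39.1 and 40.0 CPM in Fra1 controls. Its log2 fold changes were 0.00 ± 0.10 in Fra1 and -0.05 ± 0.10 in Fra2.

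The D cyclins, the growth-factor-responsive partners of Cdk4 and Cdk6, differed among themselves. Ccnd2 stood at 13.4, 10.7 and 12.8 CPM in Fra1 mutants, against 5.74, 9.13 and 7.37 CPM in Fra1 controls, without overlap. Its Fra2 values were 15.8, 8.83 and 8.25 CPM in mutants, against 9.71, 8.37 and 9.44 CPM in controls, where a single mutant stood above the rest. The log2 fold changes were 0.72 ± 0.25 in Fra1 (edgeR, adjusted p = 0.156) and 0.25 ± 0.25 in Fra2 (adjusted p = 0.778). Ccnd3 had values of -0.09 ± 0.13 in Fra1 and 0.04 ± 0.13 in Fra2.

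Ccnd1 (ENSMUSG00000070348, chromosome 7, 144929931 to 144939925, minus strand), the cyclin best known from liver regeneration, ranged most widely of the cyclins. It stood at 31.0, 61.5 and 17.4 CPM in Fra1 mutants, against 12.5, 25.9 and 25.4 CPM in Fra1 controls. In Fra2 livers it stood at 69.2, 37.3 and 38.7 CPM in mutants, against 71.9, 11.2 and 9.33 CPM in controls. The highest liver of all 12 was thus a control, Fra2 control 1, while the other Fra2 controls lay below every Fra2 mutant. The log2 fold changes were 0.78 ± 0.73 in Fra1 (edgeR, adjusted p = 0.655) and 0.65 ± 0.73 in Fra2 (adjusted p = 0.814). With 1 library left out in turn, the values ran from 0.18 (without Fra1 mutant 2) to 1.10 (without Fra1 mutant 3) in Fra1. In Fra2 they were 0.25 without control 2, 0.22 without control 3 and 0.30 without mutant 1. The lowest average was 0.42, without Fra1 mutant 2. Without Fra2 control 1 the Fra2 value was 2.24 (adjusted p = 0.122), and the average, 1.51, passed edgeR's test (adjusted p = 0.0350). Without both that liver and Fra1 mutant 2, the Fra2 value passed (adjusted p = 0.0430), as did the average, 1.21 (adjusted p = 0.0352). Ccnd1 overlaps LTO1 on the other strand, which averaged 17.7 CPM, and whether its reads entered the Ccnd1 count was not tested. Ccnd1 is described here at this length after its values were seen.

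Cyclin E and its kinase gave no call. Ccne1 had log2 fold changes of 0.62 ± 0.51 in Fra1 and 0.86 ± 0.55 in Fra2 at a mean of 1.35 CPM, and Ccne2 of 0.19 ± 0.47 and 0.22 ± 0.47 at 0.946 CPM. Cdk2 stood at 15.5, 13.8 and 15.7 CPM in Fra2 mutants, just below the 18.5, 26.3 and 16.2 CPM of Fra2 controls (log2 fold change -0.44 ± 0.20, edgeR, adjusted p = 0.445).

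Of the kinase inhibitors, Cdkn1a (ENSMUSG00000023067, chromosome 17, 29090976 to 29100727, plus strand), the p53-induced brake on Cdk2, was set by a single liver in the Fra1 strain. It stood at 3.12, 85.7 and 7.26 CPM in Fra1 mutants, against 6.72, 4.03 and 6.34 CPM in Fra1 controls. In the other strain it stood at 16.4, 18.0 and 26.9 CPM in Fra2 mutants, against 11.3, 7.87 and 15.8 CPM in Fra2 controls. Fra1 mutant 1 was the lowest and Fra1 mutant 2 the highest of the 12 livers, while the Fra2 groups did not overlap. The log2 fold change was 2.49 ± 0.96 in Fra1 (edgeR, adjusted p = 0.215), and -0.13 without Fra1 mutant 2. In Fra2 it was 0.82 ± 0.90 (adjusted p = 0.813), with an SE that the shared estimate of spread makes wide.

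Cdkn1b, the p27 inhibitor of quiescent cells, ranged from 29.4 to 39.4 CPM in all 12 livers, with log2 fold changes of 0.16 ± 0.12 in Fra1 and -0.10 ± 0.12 in Fra2. Cdkn2c (p18, an inhibitor of Cdk4 and Cdk6) stood at 7.60, 5.16 and 5.18 CPM in Fra1 mutants, against 5.22, 4.56 and 3.28 CPM in Fra1 controls, and at 6.83, 7.14 and 5.14 CPM in Fra2 mutants, against 6.84, 7.42 and 3.67 CPM in Fra2 controls. The groups overlapped in both strains, and the average log2 fold change was 0.27 ± 0.20 (edgeR, adjusted p = 0.509).

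Genes of DNA synthesis gave no call. Rrm1, Rrm2 (ribonucleotide reductase) and Tyms (thymidylate synthase) had log2 fold changes between -0.13 and 0.16 in the 2 strains. Pcna, the sliding clamp of DNA polymerase, stood at 13.5, 13.0 and 14.7 CPM in Fra2 mutants, against 9.49, 10.6 and 11.8 CPM in Fra2 controls, without overlap. Its Fra1 values, 12.7, 11.9 and 11.9 CPM in mutants against 14.0, 10.4 and 10.6 CPM in controls, overlapped. The log2 fold changes were 0.37 ± 0.14 in Fra2 (edgeR, adjusted p = 0.345) and 0.07 ± 0.14 in Fra1 (adjusted p = 0.875).

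Tk1, the thymidine kinase of S phase, had its lowest group mean in Fra2 mutants. It stood at 8.52, 9.43 and 9.54 CPM in Fra2 mutants, against 20.03, 20.1 and 14.0 CPM in Fra2 controls, without overlap. In Fra1 livers it stood at 22.2, 16.4 and 9.39 CPM in mutants, against 12.9, 22.0 and 10.1 CPM in controls, where both groups covered the same range. The log2 fold change was -0.98 ± 0.33 in Fra2 (edgeR, adjusted p = 0.251) and 0.09 ± 0.32 in Fra1 (adjusted p = 0.922). The difference of these effects, -1.07 ± 0.46, had an adjusted p of 0.750 by edgeR. Tk1 overlaps Afmid on the other strand, which averaged 46.6 CPM.

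The mitotic genes were lower in level than the cyclins and inhibitors. Of 25 mitotic genes tested, 21 had a positive log2 fold change in Fra1 and 16 in Fra2, with medians of 0.70 and 0.06. The 11 cyclin and inhibitor genes had 10 positive values in Fra1 and 8 in Fra2, with medians of 0.46 and 0.22. The 9 S phase genes had medians of 0.07 in Fra1 and 0.11 in Fra2, and all genes tested had medians of 0.01 and -0.01. Without the filter, all 27 mitotic genes had 23 positive values in Fra1 and 16 in Fra2. The median SE of a mitotic gene was 0.56 in Fra1 and 0.53 in Fra2, against 0.25 in both strains for cyclin and inhibitor genes. Of the 25, 0 passed edgeR's or DESeq2's test in either strain or in the average, and 5 had an unadjusted p under 0.05 in Fra1, all higher (Plk1, Aurka, Ube2c, Nusap1 and Anln), and 0 in Fra2. The 5 of 25 in Fra1 stand beside 9.95% of all genes higher and 16.3% in either direction at that p, and the 0 in Fra2 beside 11.5%. Over all 45 genes tested, the Fra1 count at that p fell from 10 to 3 without Fra1 mutant 2.

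Summed over the 27 mitotic genes, the level was 36.9, 52.5 and 20.9 CPM in Fra1 mutants, against 23.5, 26.2 and 29.9 CPM in Fra1 controls. It was 39.3, 35.7 and 41.2 CPM in Fra2 mutants, against 54.0, 29.3 and 29.3 CPM in Fra2 controls. Fra2 control 1 and Fra1 mutant 2 were the highest of the 12 livers and Fra1 mutant 3 the lowest, and the groups overlapped in both strains. Means were 36.8 ± 15.8 CPM in Fra1 mutants and 26.5 ± 3.21 CPM in Fra1 controls, and 38.7 ± 2.81 CPM in Fra2 mutants and 37.5 ± 14.2 CPM in Fra2 controls (SD, n = 3 each). By contrast, the 9 S phase genes summed to 71.2, 63.8 and 56.5 CPM in Fra1 mutants, against 73.1, 63.8 and 60.4 CPM in Fra1 controls, and to 58.5, 54.0 and 60.3 CPM in Fra2 mutants, against 59.6, 64.6 and 61.7 CPM in Fra2 controls. The highest liver had 2.58 times the mitotic sum of the lowest and 1.35 times the S phase sum. For the cyclin and inhibitor sum, which ran from 169 to 322 CPM, the ratio lay between these, at 1.90. The 322 CPM were those of Fra1 mutant 2, where Cdkn1a alone gave 85.7 CPM.

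**Figure D5:**
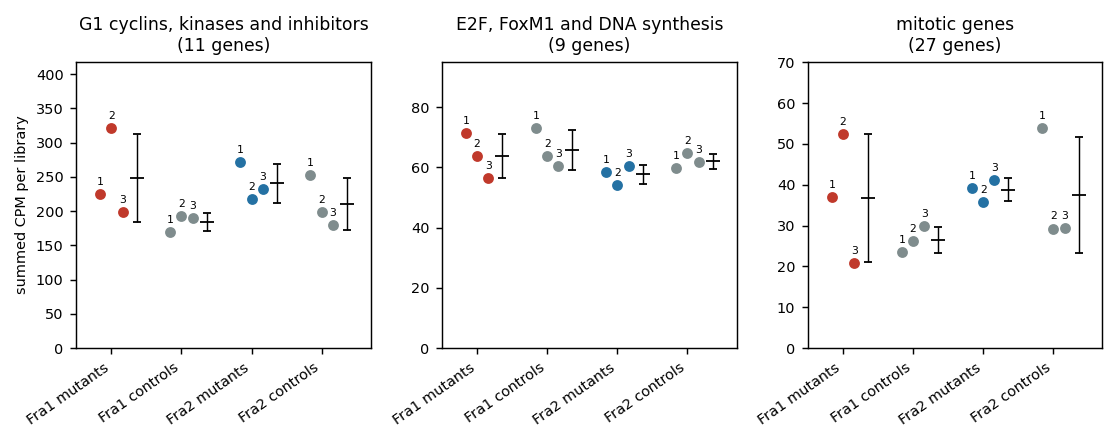
Points give the summed CPM of 11 cyclin and inhibitor genes, 9 S phase genes and 27 mitotic genes in each library, numbered by replicate, with the mean and SD (bars, n = 3) beside each group. Mitotic sums run from 20.9 to 54.0 CPM, highest in Fra2 control 1 and Fra1 mutant 2.

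The mitotic genes followed the same livers one by one. Fra1 mutant 2 was the highest of its group in 21 of the 27 (in 36.1% of all genes tested) and Fra1 mutant 3 the lowest in 23 (32.4% of all genes). Among Fra2 controls, replicate 1 was the highest in 23 of the 27 (33.3% of all genes). In Fra1 controls, replicate 3 was the highest in 17. The Fra2 mutants showed no such order, with 12, 7 and 8 genes highest in replicates 1, 2 and 3. Leaving out Fra1 mutant 2 brought the mitotic median in Fra1 to 0.34, leaving out Fra1 mutant 3 brought it to 1.06, and leaving out Fra2 control 1 brought the median in Fra2 to 0.68. Summed lymphocyte markers (9 genes, among them Cd3e, Cd79a and Nkg7) stood at 9.89, 17.2 and 11.8 CPM in Fra1 mutants, against 8.74, 8.64 and 8.87 CPM in Fra1 controls, and at 11.3, 7.79 and 10.7 CPM in Fra2 mutants, against 12.1, 8.42 and 9.33 CPM in Fra2 controls. All 9 had counts in every library. Their sum, like the mitotic sum, was highest in Fra1 mutant 2 among the Fra1 mutants and in Fra2 control 1 among the Fra2 controls. The Fra1 controls were close to each other in the lymphocyte sum, with replicate 3 the highest in both sums, and in Fra2 mutants the lymphocyte sum was highest in replicate 1 and the mitotic sum in replicate 3. Summed macrophage markers (8 genes, all with counts in every library) stood at 333, 448 and 325 CPM in Fra1 mutants, against 291, 336 and 510 CPM in Fra1 controls, and at 601, 373 and 643 CPM in Fra2 mutants, against 624, 242 and 477 CPM in Fra2 controls. The macrophage sum was highest in the same liver as the mitotic sum in all 4 groups. The neutrophil and myeloid progenitor sum (7 genes, 3 with counts in every library) did so except among Fra2 mutants. The hepatocyte sum stood at 62514, 98833 and 46242 CPM in Fra1 mutants and at 119144, 97570 and 118779 CPM in Fra2 controls. It was highest in the same liver as the mitotic sum in those groups, and not among Fra1 controls or Fra2 mutants. The endothelial sum shared the top liver among Fra1 mutants and Fra2 mutants only. The cholangiocyte sum shared it among Fra2 controls only, and was lowest of the Fra1 mutants in mutant 2, at 28.9 CPM. Summed stellate cell and fibroblast markers (7 genes, all with counts in every library) stood at 503, 484 and 383 CPM in Fra1 mutants, against 237, 323 and 242 CPM in Fra1 controls, without overlap. In Fra2 livers they stood at 226, 384 and 292 CPM in mutants, against 427, 334 and 303 CPM in controls. Ccnd2, Cdk6 and E2f2 likewise had every Fra1 mutant above every Fra1 control, as did 11.7% of all genes tested. In Fra2 livers, E2f2 had every mutant above every control, whereas the stellate cell and fibroblast sum, Ccnd2 and Cdk6 overlapped. The part of these cells in the values of the 47 genes was not tested.

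Among mitotic cyclins and their kinase, Ccna2, whose cyclin A2 acts in S phase and in entry into mitosis, stood at 1.91, 2.47 and 0.457 CPM in Fra1 mutants, against 0.392, 0.933 and 1.13 CPM in Fra1 controls. In Fra2 livers it stood at 3.15, 1.31 and 2.44 CPM in mutants, against 2.81, 1.00 and 1.40 CPM in controls. Cdk1, the kinase of mitotic entry, stood at 1.69, 2.63 and 0.660 CPM in Fra1 mutants, against 1.04, 0.736 and 1.29 CPM in Fra1 controls. In both genes Fra1 mutants 1 and 2 lay above all 3 Fra1 controls and Fra1 mutant 3 did not. Without Fra1 mutant 2 the log2 fold change of Cdk1 in Fra1 was 0.20, against 0.70 with it. The average log2 fold changes were 0.68 ± 0.43 for Ccna2 (edgeR, adjusted p = 0.425) and 0.41 ± 0.34 for Cdk1 (adjusted p = 0.552). Ccna2 overlaps Exosc9 on the other strand, which averaged 16.2 CPM. Ccnb2, cyclin B2, had a value of -0.44 ± 0.56 in Fra1 and -0.41 ± 0.53 in Fra2.

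Of the mitotic kinases and their partners, Plk1, the polo-like kinase of spindle assembly and mitotic exit, had the largest value of the mitotic genes in Fra1. It stood at 0.328, 1.63 and 0.863 CPM in Fra1 mutants, against 0.131, 0.393 and 0.161 CPM in Fra1 controls, resting on 54 counts over the mutants and 13 over the controls. In Fra2 livers it stood at 0.875, 0.599 and 0.726 CPM in mutants, against 1.10, 0.390 and 0.432 CPM in controls. Fra1 mutant 1 lay below Fra1 control 2, and Fra2 control 1 was above every Fra2 mutant. The log2 fold changes were 1.97 ± 0.65 in Fra1 (edgeR, adjusted p = 0.141) and 0.19 ± 0.59 in Fra2 (adjusted p = 0.947), and their difference was -1.78 ± 0.88 (adjusted p = 0.816).

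Aurka, the Aurora kinase of the centrosome, stood at 0.765, 2.37 and 0.710 CPM in Fra1 mutants, against 0.261, 0.491 and 0.753 CPM in Fra1 controls, and at 1.93, 0.981 and 1.87 CPM in Fra2 mutants, against 1.05, 0.893 and 0.809 CPM in Fra2 controls. In each strain 1 mutant lay within the range of the controls. The average log2 fold change, 1.06 ± 0.37, had the smallest p of the mitotic genes and missed edgeR's threshold (adjusted p = 0.130). Without Fra1 mutant 2 the average was 0.66 (edgeR, adjusted p = 0.262) and the Fra1 value 0.53, against 1.32 with it. Ube2c, whose promoter is printed above, stood at 0.547, 2.47 and 0.304 CPM in Fra1 mutants, against 0.326, 0.196 and 0.484 CPM in Fra1 controls, carried by mutant 2 (log2 fold change 1.71 ± 0.75, edgeR, adjusted p = 0.284). The other 6 genes of this class that were tested, Aurkb, Bub1b, Birc5, Cdc20, Cdca3 and Cdca8, had log2 fold changes between 0.12 and 0.67 in Fra1 and between -0.34 and 0.60 in Fra2.

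Among genes of chromosomes and the spindle, Kif11, the motor that separates the spindle poles, stood at 1.80, 2.05 and 0.812 CPM in Fra1 mutants, against 0.587, 0.933 and 1.13 CPM in Fra1 controls. In Fra2 livers it stood at 1.58, 1.80 and 1.61 CPM in mutants, against 1.88, 0.781 and 0.809 CPM in controls. A single liver made the groups overlap each time, Fra1 mutant 3 and Fra2 control 1. The average log2 fold change was 0.66 ± 0.31 (edgeR, adjusted p = 0.265). Cenpa, the centromeric histone and the highest mitotic gene in CPM, stood at 5.36, 5.73 and 4.36 CPM in Fra1 mutants, all below the 6.26, 6.38 and 6.51 CPM in Fra1 controls. Its Fra2 values, 6.07, 6.87 and 6.54 CPM in mutants against 8.33, 7.64 and 5.93 CPM in controls, overlapped. The log2 fold changes were -0.31 ± 0.17 in Fra1 (edgeR, adjusted p = 0.409) and -0.17 ± 0.17 in Fra2 (adjusted p = 0.785).

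The proliferation marker Mki67 (Ki-67) stood at 2.35, 4.74 and 0.812 CPM in Fra1 mutants, against 1.17, 1.23 and 1.29 CPM in Fra1 controls. Its Fra2 values were 3.27, 1.96 and 1.97 CPM in mutants, against 4.19, 1.17 and 1.67 CPM in controls. Fra1 mutant 3 was the lowest and Fra1 mutant 2 the highest of the 12 livers. Top2a, the topoisomerase that untangles chromosomes, stood at 3.17, 4.26 and 0.863 CPM in Fra1 mutants, against 1.17, 1.96 and 0.753 CPM in Fra1 controls, again with mutant 3 among the controls. The log2 fold changes in Fra1 were 1.09 ± 0.60 for Mki67 and 1.08 ± 0.57 for Top2a, and in Fra2 0.03 ± 0.58 and 0.31 ± 0.57. Nusap1, a microtubule protein of the spindle, stood at 1.32, 1.00 and 1.13 CPM in Fra2 controls against 0.522, 0.196 and 0.108 CPM in Fra1 controls, or 63 counts against 14, without overlap.

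Of the cytokinesis genes, Anln, the actin-binding scaffold anillin of the cleavage furrow, stood at 1.15, 1.68 and 0.457 CPM in Fra1 mutants, against 0.522, 0.196 and 0.645 CPM in Fra1 controls (log2 fold change 1.27 ± 0.57, edgeR, adjusted p = 0.300). In Fra2 livers it stood at 0.642, 1.42 and 1.24 CPM in mutants, against 1.43, 0.614 and 0.917 CPM in controls. Fra1 mutant 3 again lay within the controls. Without Fra1 mutant 2 the log2 fold change of Anln in Fra1 was 0.82. Kif20a, a kinesin of the central spindle, stood at 1.37, 1.84 and 0.558 CPM in Fra1 mutants, against 0.653, 0.442 and 0.968 CPM in Fra1 controls, and at 1.81, 1.91 and 1.92 CPM in Fra2 mutants, against 3.25, 1.12 and 1.02 CPM in Fra2 controls. The 3 Fra2 mutants were almost equal, and the Fra2 controls lay on both sides of them. Kif20a overlaps Cdc23 on the other strand, which averaged 17.6 CPM, against 1.40 CPM for Kif20a. Prc1, which bundles the microtubules of the central spindle, reached its highest value of all 12 livers in Fra2 control 1, at 2.70 CPM against 0.223 and 0.755 CPM in the other Fra2 controls. The 6 cytokinesis genes had log2 fold changes between -0.33 and 1.27 in Fra1 and between -0.22 and 0.17 in Fra2.

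The effects of the 2 strains were compared directly. Of the 45 genes, 0 differed at an adjusted p under 0.05 by edgeR, beside 0.0355% of all genes, and 0 by DESeq2, beside 0.49% of all genes. At an unadjusted p under 0.05 there were 2, Tk1 and Nusap1 (4.44%, beside 6.32% of all genes), both with the lower effect in Fra2. Between Fra2 controls and Fra1 controls, edgeR and DESeq2 called 0 of the 45, where edgeR called 0.0% and DESeq2 0.128% of all genes. At an unadjusted p under 0.05 there were 3 genes, all higher in Fra2 controls (6.67%, beside 5.35% of all genes). They were Nusap1, with a log2 difference of 2.10 ± 0.48, Kif20a with 1.38 ± 0.54 and Cdk6 with 0.73 ± 0.21.

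Other genes of the pathway gave a few calls. Of 24 replication licensing genes, which load the helicase onto origins, 22 were tested, and 1 rose in each strain and in the average, the helicase subunit Mcm2, while 0 fell. That 1 gene is 4.55% of the list, beside 2.9% of all genes that rose in Fra1, 0.845% in Fra2 and 4.33% in the average. Mcm2 stood at 11.5, 12.2 and 8.27 CPM in Fra1 mutants, against 2.28, 2.21 and 2.37 CPM in Fra1 controls, and at 9.63, 12.2 and 11.6 CPM in Fra2 mutants, against 3.92, 3.07 and 2.266 CPM in Fra2 controls. The median of the list was -0.01 in Fra1 and 0.07 in Fra2.

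Of 19 further E2F, pocket protein and inhibitor genes, 16 were tested and 1 rose, Rbl1 (p107), a pocket protein that binds repressive E2Fs. It is 6.25% of the list, beside the 2.9% of all genes in Fra1 and 4.33% in the average. It stood at 5.03, 3.21 and 4.41 CPM in Fra1 mutants, against 0.979, 1.28 and 1.77 CPM in Fra1 controls, and at 5.25, 2.45 and 4.67 CPM in Fra2 mutants, against 3.14, 1.28 and 1.51 CPM in Fra2 controls. The Fra1 groups did not overlap, and the Fra2 groups did through Fra2 control 1. The log2 fold change passed edgeR's test in Fra1 (1.64 ± 0.41, adjusted p = 0.0479) and in the average (1.35 ± 0.28, adjusted p = 0.0158) but not in Fra2 (1.06 ± 0.40, adjusted p = 0.314).

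Of 20 p53 target genes, all tested, 0 passed in either strain and 1 rose in the average, Ccng1 (cyclin G1), or 5.0% beside 4.33% of all genes. It stood at 74.1, 39.0 and 39.8 CPM in Fra1 mutants, against 27.1, 30.7 and 34.5 CPM in Fra1 controls, and at 56.9, 60.7 and 67.3 CPM in Fra2 mutants, against 27.4, 34.3 and 48.2 CPM in Fra2 controls, without overlap in either strain (average log2 fold change 0.74 ± 0.18, edgeR, adjusted p = 0.0355). Its order among Fra1 mutants is not that of Cdkn1a, which peaked in mutant 2 while Ccng1 peaked in mutant 1.

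Of 39 other mitotic genes, 27 were tested, 0 rose and 1 fell in the average, Pttg1, the securin that restrains separase. It is 3.7% of the list, beside 1.9% of all genes that fell and 4.33% that rose. It stood at 29.1, 28.8 and 31.4 CPM in Fra1 mutants, against 42.0, 37.0 and 36.9 CPM in Fra1 controls, and at 27.6, 26.4 and 27.2 CPM in Fra2 mutants, against 30.3, 39.0 and 33.9 CPM in Fra2 controls, without overlap in either strain (average log2 fold change -0.36 ± 0.08, edgeR, adjusted p = 0.0158). The median of that list was 0.11 in Fra1 and 0.05 in Fra2, with 16 and 14 of 27 positive.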

How the data were processed

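Polyadenylated RNA of 12 livers was sequenced from stranded libraries, per the labels' protocols. The authors deposited counts, whole numbers per gene and library, without normalization. The submitters' processing notes name STAR 2.6.1a, RSEM, bedtools 2.27.1, DESeq2 1.22.2 and GRCm38, but not which tool made the counts, nor the annotation or strand setting. Analysis used R 4.3.3 and edgeR 4.0.16. Genes that passed filterByExpr by group (14076) were fitted with 4 group means, TMM factors and the robust quasi-likelihood model over all 12 libraries. P-values are two-sided and Benjamini-Hochberg adjusted over all genes tested, with calls at 0.05, and SEs are derived from the test statistic. CPM uses TMM-scaled totals. CPM per kb uses GENCODE M21 exon lengths. Scripts were tested on simulated data.

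Alternatives were DESeq2 1.42.0, RLE factors, no scaling, no filter, the 6 libraries of a strain alone, the replicate number as a block, and each library left out. Leaving out Fra1 mutant 2 with Fra2 control 1 was chosen after seeing the data. The 47 genes and the other lists were chosen with earlier results of these data known. Named in full were called genes and, in each role, the 2 with the smallest p in the average effect, plus up to 2 by level. Ccnd1, Cdk2, E2f1, Ube2c, Nusap1 and Prc1 were added after their values were seen. Of the other lists, up to 4 called genes were named. One lymphocyte marker of the list is not reported here and was left out of its sum. PCR copies cannot be told from molecules.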

Additional observations from a re-analysis of the deposited data

How the results depend on the processing

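Of the 45 genes tested, 0 were called in Fra1, but 2 by DESeq2, 1 without both Fra1 mutant 2 and Fra2 control 1, and 0 to 1 with each library left out in turn. Of all 14076 genes, 408 were called higher and 132 lower in Fra1. The numbers were 678 and 343 by DESeq2, 369 and 131 without both livers, and 214 to 423 and 52 to 154 with each library left out. In Fra2, 0 of the 45 were called, 1 without both of those livers, and 0 to 0 with each library left out. Of all genes, 119 were called higher and 31 lower in Fra2. The numbers were 124 and 45 without both livers, and 45 to 142 and 7 to 41 with each library left out. In the average, 1 of the 45 was called, but 2 by DESeq2, 2 without both livers, 2 with no scaling factor and 1 to 3 with each library left out. Of all genes, 610 were called higher and 268 lower in the average. The numbers were 837 and 511 by DESeq2, 598 and 284 without both livers, and 939 and 187 with no scaling factor. They were 443 to 603 and 161 to 301 with each library left out. With the replicate block 0 of the 45 were called in the average, where E2f2 had 1.48, and 458 of all genes were called higher and 173 lower. Same-number correlations of deviations were -0.07, 0.05 and 0.05 in Fra1 and 0.06, 0.03 and -0.12 in Fra2. These values cannot tell whether the numbers pair livers by litter or cage.

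The cyclin and inhibitor median in Fra1 was 0.18 without both livers and 0.18 to 0.54 with each library left out, and in Fra2 0.038 to 0.31. For S phase genes it was -0.16 in Fra1 without both livers, 0.21 with no scaling factor (which moves the median of all genes to 0.15) and -0.16 to 0.068 with each library left out, and in Fra2 0.0089 to 0.11. For mitotic genes it was 0.34 in Fra1 and 0.68 in Fra2 without both livers, and 0.34 to 1.06 in Fra1 and -0.14 to 0.68 in Fra2 with each library left out.

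Signs of some uncalled genes turned with 1 library left out. In Fra1 such values ran from -0.13 to 3.01 for Cdkn1a (-0.13 without both livers), from -0.014 to 0.20 for Pcna and from -0.24 to 0.48 for Tk1. In Fra2 they ran from -0.10 to 0.42 for Ccnd2, from -0.16 to 0.28 for Cdkn2c, from -0.15 to 0.56 for Cdk1, from -0.064 to 0.82 for Plk1, from -0.088 to 0.52 for Anln and from -0.22 to 0.81 for Kif20a. The causes were not tested. Of the 17 genes followed through every setting, the average effect of 9 moved by over 1.5 times or turned with some library left out. The mitotic genes have the lowest levels, at a median of 0.983 CPM, and counting error was not separated from spread between livers.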
